A study of Mus musculus with 4 samples.

Results

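To examine monocyte gene expression in the blood of naringenin (Nar)-treated mice, 9 genes that mark blood monocytes were followed through 4 RNA-seq libraries. The genes were Csf1r, Lyz2, Ms4a6b and Ms4a6c, which all blood monocytes share, Ly6c2 and F13a1, which mark classical monocytes, and Ace, Treml4 and Itgax, which mark non-classical monocytes. They were chosen by name as known monocyte genes, with earlier results of these data known, and all 9 were found among the 17823 genes with values. The mice were C57BL/6, which the labels call adult and the study calls aging. Control (Ctrl) mice received phosphate-buffered saline (PBS) and Nar mice received the flavonoid Nar by tail vein injection for 30 days. The 2 libraries of each group carry the numbers 1 and 3, and neither the labels nor the methods say whether a library came from 1 mouse or from pooled blood. The p-values below therefore measure the spread between these libraries only.

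Monocytes arise in the bone marrow and circulate in blood as a pair of classes. Classical monocytes carry much Ly6C on their surface and enter inflamed tissue through the chemokine receptor CCR2, whereas non-classical monocytes carry little Ly6C, patrol the vessel wall and depend on the transcription factor NR4A1. Both classes carry CSF1R, the receptor for macrophage colony-stimulating factor and interleukin-34, on which the survival of non-classical monocytes depends in particular. Most of these genes have other sources in blood as well. Lyz2 is also a gene of neutrophils, F13a1 of platelets, Ms4a6b of T cells, and Itgax of dendritic cells and natural killer (NK) cells.

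The regions around the transcription start sites of 3 of these genes are printed here because they set the classical genes beside a non-classical one. Each is the 300-base window of RefSeq (assembly GRCm38.p6), 5′ to 3′, and capitals mark the letters GAGGAAGT, a match to the motif of PU.1, the transcription factor of myeloid cells that Spi1 encodes.
Ly6c2: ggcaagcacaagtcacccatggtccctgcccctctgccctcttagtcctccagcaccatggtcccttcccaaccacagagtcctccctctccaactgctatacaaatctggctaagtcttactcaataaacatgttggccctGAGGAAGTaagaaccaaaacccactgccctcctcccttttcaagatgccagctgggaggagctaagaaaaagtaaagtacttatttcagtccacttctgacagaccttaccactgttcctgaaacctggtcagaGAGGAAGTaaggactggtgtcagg
F13a1: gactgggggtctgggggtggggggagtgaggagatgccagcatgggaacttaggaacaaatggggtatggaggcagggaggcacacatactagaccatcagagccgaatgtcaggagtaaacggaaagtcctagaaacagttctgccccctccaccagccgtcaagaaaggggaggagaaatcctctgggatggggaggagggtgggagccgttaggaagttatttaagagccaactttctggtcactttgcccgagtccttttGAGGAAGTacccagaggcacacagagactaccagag
Treml4: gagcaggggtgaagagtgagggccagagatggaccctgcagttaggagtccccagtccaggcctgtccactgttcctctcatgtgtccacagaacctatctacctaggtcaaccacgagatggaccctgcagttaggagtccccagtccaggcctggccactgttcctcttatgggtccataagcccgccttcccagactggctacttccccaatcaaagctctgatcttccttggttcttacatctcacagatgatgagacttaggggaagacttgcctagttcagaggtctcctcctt
The Ly6c2 window lies at chr15:75111922-75112221 on the minus strand, that of F13a1 at chr13:37049164-37049463 on the minus strand, and that of Treml4 at chr17:48264045-48264344 on the plus strand. A window covers 250 bases before and 50 after an annotated start site, and the F13a1 window belongs to 1 of the start sites listed for that gene. The Ly6c2 window held the letters at 2 places, beginning at positions -108 and 27 with the start site as 1, and the F13a1 window held them at 1 place, at position 15. A second Ly6c2 window, from another start site, overlaps the first and holds the same matches at positions -142 and -8. The other F13a1 window and the windows of Lyz2, Ms4a6b, Ms4a6c, Ace, Treml4 and Itgax held none. Among 32851 windows of the same length, 3.2% held the letters on either strand. The motif letters TTGCNNAA of C/EBP factors, found in 10.8% of windows, and AAAGGTCA of NR4A factors, found in 1.51%, occurred in no window of these genes. Ly6c1, the close relative of Ly6c2, held the PU.1 letters in 1 of its windows, at position -127. A match describes the letters in the window and does not show that a factor binds there. The window of Csf1r was not analysed here.

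Levels were measured as FPKM, the fragments of a gene divided by its length and by the mapped fragments of the library, so each level is a share of the library's RNA. Haemoglobin genes made up 92.6 to 95.1% of the summed FPKM in Ctrl and 95.7 to 96.4% in Nar libraries, and all other genes shared the remainder. Differences were tested with limma on log2(FPKM + 0.1) over the 5339 genes whose mean over the libraries reached 0.5 FPKM, as all 9 monocyte genes did. A gene was called when its Benjamini-Hochberg adjusted p-value was under 0.05 and its fold change above 2. Over all tested genes the median difference was -1.07 on the log2 scale, which is the level against which a single gene has to be read. Median-of-ratios scaling, under which the typical gene is level between libraries, moved this median to -0.0016. The 4 libraries listed 13632 to 14378 genes above 0, and the number of reads behind the values is unknown. For a single value, an exact permutation test of 2 libraries against 2 cannot give a two-sided p below 0.33.

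Compared with controls, Ly6c2 was far lower in Nar blood, while the other 8 members lay near the general shift. The 9 genes had a median log2 fold change of -1.41 on the deposited scale. Ly6c2, Lyz2 and Ms4a6c passed the limma threshold, all lower, which is 3 of 9 where 39.3% of all tested genes were called lower. Both Nar libraries lay below both Ctrl libraries in 5 of the 9 genes (Csf1r, Lyz2, Ms4a6c, Ly6c2 and F13a1), against 78.3% of all tested genes. A share at or below the share of all genes is no result about monocyte genes as a group. After median-of-ratios scaling the median of the 9 genes was -0.29 and only Ly6c2 of the 9 was called, where 0.599% of all tested genes were called lower. With haemoglobin genes removed and the remainder rescaled, the median was -0.91 and again only Ly6c2 of the 9 was called, where 4.54% of genes were called lower. In bulk blood, fewer cells of a type and less RNA per cell cannot be told apart.

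**Figure D1:**
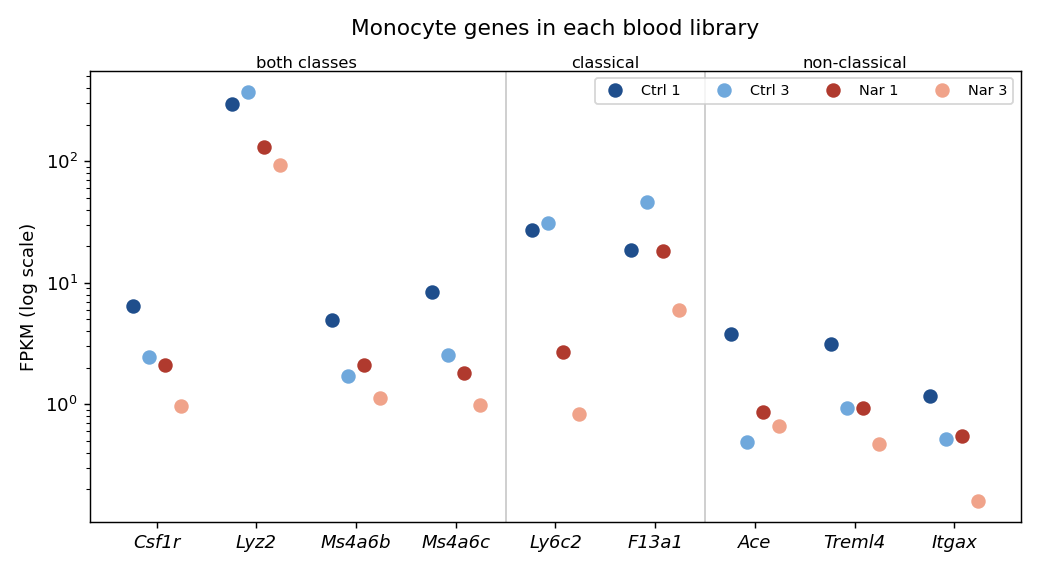
FPKM on a log scale (vertical axis) of the 9 monocyte genes (horizontal axis), with 1 point for each library, Ctrl in blue and Nar in red. The Ly6c2 points of the groups lie far apart, at 27.2 and 30.8 against 2.7 and 0.83 FPKM, whereas Ctrl 3 lies nearer to Nar 1 than to Ctrl 1 for Csf1r, Ms4a6b, Ms4a6c and the 3 non-classical genes.

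Ly6c2 (gene ID 100041546 in the deposited values) encodes the Ly6C antigen, a small surface protein held by a lipid anchor and the usual marker of classical monocytes in mice. It reached 27.2 FPKM in Ctrl 1 and 30.8 in Ctrl 3, against 2.7 in Nar 1 and 0.83 in Nar 3. The control libraries were close to each other, both Nar libraries lay well below them, and the Nar libraries differed from each other by 3.25-fold. The means were 29.0 ± 2.55 FPKM (SD, n = 2) in Ctrl and 1.77 ± 1.32 FPKM (SD, n = 2) in Nar, a difference of -4.17 on the log2 scale (standard error 0.584, limma adjusted p = 0.00439). It was -3.71 with haemoglobin genes removed (limma adjusted p = 0.000408) and -3.04 after median-of-ratios scaling (limma adjusted p = 0.0335). Without the filter on low values the call was lost (limma adjusted p = 0.113), where 0 of all genes were called. Leaving out 1 library at a time gave log2 fold changes from -4.97 to -3.38. The call was kept without Nar 1 and lost without Ctrl 1, Ctrl 3 or Nar 3, with limma adjusted p-values of 0.0193, 0.0826, 0.0872 and 0.0536. Without either control library 0 of all tested genes were called by limma, while 2682 genes without Ctrl 1 and 2133 without Ctrl 3 had an unadjusted p-value under 0.05.

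Neutrophil genes were also lower in Nar blood. All 10 neutrophil marker genes, among them S100a8, S100a9, Ngp and Retnlg, were called lower in Nar, where 39.3% of all tested genes were, with a median log2 fold change of -3.67. With median-of-ratios scaling the median was -2.50 and 4 of the 10 were called lower (Ngp, Camp, Ltf and Mmp8), where 0.599% of all tested genes were. Their summed level came to 1638 FPKM in Ctrl 1 and 1361 in Ctrl 3, against 99.6 in Nar 1 and 157 in Nar 3. Between the Nar libraries, Ly6c2 was higher in Nar 1 than in Nar 3, with a ratio of 3.25. So were Camp and Ltf (2 and 1.62), while the other neutrophil markers were lower in Nar 1 than in Nar 3. Neutrophils are usually recognised by Ly6G and carry less Ly6C than classical monocytes, and the part of neutrophil RNA in the Ly6c2 values was not tested. Divided by S100a8 in the same library, Ly6c2 was 0.0608 in Ctrl 1 and 0.0770 in Ctrl 3, against 0.0779 in Nar 1 and 0.0169 in Nar 3. With this marker 3 of the 4 libraries were close and Nar 3 was low. The pattern depends on the marker, because Camp and Ltf, unlike S100a8, were themselves lower in Nar 3 than in Nar 1. No other neutrophil marker was used as a divisor. Ly6c1, the related gene on the same chromosome, was listed at 0.84 and 1.59 FPKM in Ctrl and 0.55 and 0.45 in Nar (log2 fold change -1.08, limma adjusted p = 0.057). Of the 50-base words of the longest coding Ly6c2 transcript, 32.6% also occur in a coding transcript of Ly6c1. An aligner could therefore assign some reads to either gene, and the split between them is uncertain.

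**Figure D2:**
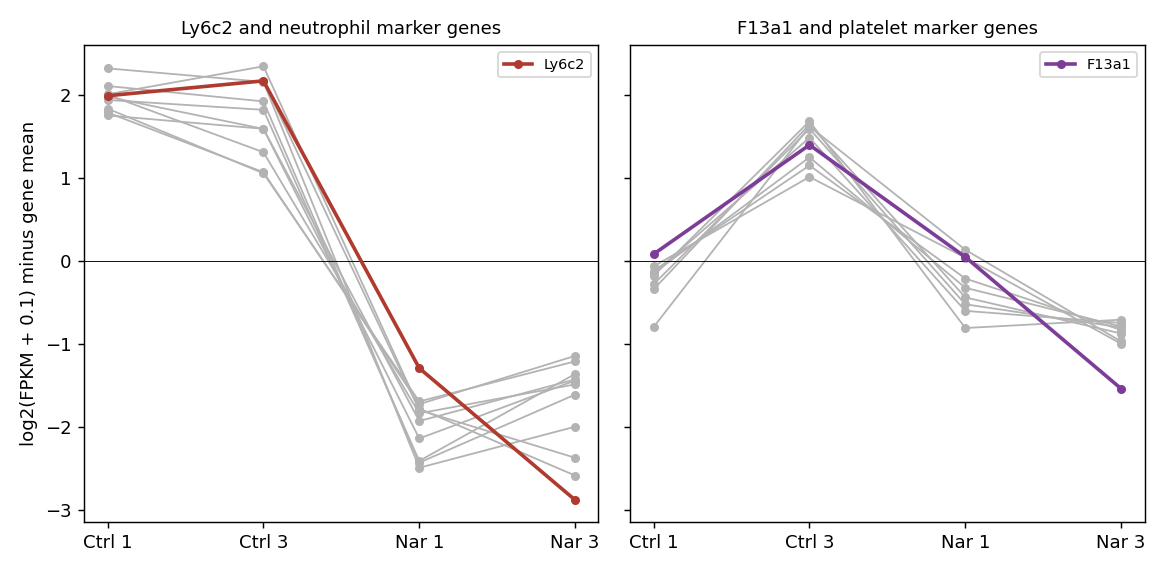
Level of Ly6c2 (red, left) with the 10 neutrophil marker genes (grey) and of F13a1 (purple, right) with the 8 platelet marker genes (grey), as log2(FPKM + 0.1) minus each gene's mean, by library. Lines join the values of 1 gene and imply no order. Ly6c2 and neutrophil genes were high in both Ctrl libraries, while F13a1 and platelet genes peaked in Ctrl 3.

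F13a1 (gene ID 74145), the other classical marker, encodes the A subunit of coagulation factor XIII, which cross-links fibrin. It reached 18.6 FPKM in Ctrl 1 and 46.6 in Ctrl 3, against 18.2 in Nar 1 and 5.98 in Nar 3. Ctrl 1 and Nar 1 were nearly equal, Ctrl 3 was high and Nar 3 was low. The log2 fold change of -1.49 (standard error 0.685) did not pass the test (limma adjusted p = 0.097), and it was -0.32 after median-of-ratios scaling. It was -2.15 without Ctrl 1, -0.83 without Ctrl 3, -2.28 without Nar 1 and -0.69 without Nar 3. Platelet genes showed the same high value in Ctrl 3, where the summed level of 8 platelet markers was 2426 FPKM, against 759.7 in Ctrl 1, 636.1 in Nar 1 and 497.3 in Nar 3. Divided by Pf4, a platelet chemokine, F13a1 was 0.0801 in Ctrl 1 and 0.0550 in Ctrl 3, against 0.121 in Nar 1 and 0.0371 in Nar 3, and the groups overlapped. The part of platelet RNA in the F13a1 values was not tested.

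The non-classical genes had low levels that differed widely between the control libraries, and none was called without a replicate block. With the replicate number as a block Treml4 was called (limma adjusted p = 0.0362), though the numbers were not taken to pair the libraries. Ace (gene ID 11421), which encodes angiotensin-converting enzyme, reached 3.76 FPKM in Ctrl 1 and 0.49 in Ctrl 3, against 0.87 in Nar 1 and 0.67 in Nar 3. Ctrl 1 stood alone, and Ctrl 3 lay below both Nar libraries. Ace is also a gene of endothelium. The summed level of 5 endothelial markers was 33.9 and 81.2 FPKM in Ctrl and 42.7 and 22.9 in Nar, nearly all from Vwf and Pecam1, which platelets also express, while Cdh5 and Tek had at most 0.03 FPKM and Kdr at most 0.13 in any library. The part of endothelial RNA in the Ace values was not tested. Treml4 (gene ID 224840), a receptor of the TREM-like family, reached 3.11 FPKM in Ctrl 1 and 0.94 in Ctrl 3, against 0.94 in Nar 1 and 0.47 in Nar 3. Itgax (gene ID 16411), the integrin chain CD11c, reached 1.18 FPKM in Ctrl 1 and 0.52 in Ctrl 3, against 0.55 in Nar 1 and 0.16 in Nar 3. In all 3 genes Ctrl 1 was highest, and Ctrl 3 did not lie above Nar 1.

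The log2 fold changes were -0.80 for Ace (standard error 0.724, limma adjusted p = 0.344), -1.25 for Treml4 (standard error 0.547, limma adjusted p = 0.0862) and -1.12 for Itgax (standard error 0.558, limma adjusted p = 0.118). These values lay near the general shift of -1.07, and with median-of-ratios scaling they were 0.23, -0.19 and -0.18. The values turned on the control library used, since without Ctrl 1 the log2 fold changes were 0.55, -0.43 and -0.59, and without Ctrl 3 they were -2.16, -2.06 and -1.64. Markers of dendritic cells other than Bst2 had at most 0.53 FPKM in any library, and Cd209a, Siglech and Clec9a were listed at 0 in 1 or more libraries. The summed level of 7 NK cell markers was 20.9, 18.6, 9.74 and 4.79 FPKM in Ctrl 1, Ctrl 3, Nar 1 and Nar 3. Gzma made up much of these sums, at 9.48, 12.8, 4.68 and 2.29 FPKM in the same order. It was lower in Ctrl 1 than in Ctrl 3, while the other NK cell markers were higher in Ctrl 1. The part of dendritic cells and NK cells in the Itgax values was not tested.

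Among the genes shared by both classes, Lyz2 had by far the highest FPKM. Lyz2 (gene ID 17105) encodes lysozyme, which breaks down bacterial cell walls, and reached 295 FPKM in Ctrl 1 and 373 in Ctrl 3, against 131 in Nar 1 and 92.6 in Nar 3. The groups did not overlap, with a difference of -1.59 on the log2 scale (standard error 0.465, limma adjusted p = 0.0313). The call was lost after median-of-ratios scaling, at a log2 fold change of -0.42 (limma adjusted p = 0.804), with haemoglobin genes removed, without the filter, with the replicate number as a block (limma adjusted p = 0.112), and without any 1 of the 4 libraries. Lyz1, which shares 15.4% of the 50-base words of the Lyz2 transcript, was lower to a like degree, with a log2 fold change of -1.49 (limma adjusted p = 0.0317), a call that was also lost with median-of-ratios scaling (-0.35, limma adjusted p = 0.839). The ratio of Lyz1 to Lyz2 stayed between 0.0198 and 0.0270 in the 4 libraries. The neutrophil markers fell by more, so that Lyz2 divided by S100a8 was higher in both Nar libraries (3.77 and 1.89) than in both Ctrl libraries (0.661 and 0.932).

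Csf1r (gene ID 12978) reached 6.42 FPKM in Ctrl 1 and 2.47 in Ctrl 3, against 2.11 in Nar 1 and 0.97 in Nar 3. The groups did not overlap, but Ctrl 3 was much closer to Nar 1 than to Ctrl 1. The log2 fold change of -1.41 (standard error 0.552) did not pass the test (limma adjusted p = 0.0654), and it was -0.74 without Ctrl 1 and -2.08 without Ctrl 3. With the replicate number as a block Csf1r was called by a narrow margin (limma adjusted p = 0.0494). The genes of both CSF1R ligands had a mean under 0.5 FPKM and were not tested, with Csf1 at 0.9 and 0.64 FPKM in Ctrl and 0.18 and 0.17 in Nar, and Il34 at 0.12 and 0.55 in Ctrl and 0.08 and 0.13 in Nar.

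Ms4a6b (gene ID 69774) and Ms4a6c (gene ID 73656) lie near each other on chromosome 19 and encode membrane proteins of the MS4A family, which span the membrane 4 times. Ms4a6c reached 8.45 FPKM in Ctrl 1 and 2.55 in Ctrl 3, against 1.8 in Nar 1 and 0.99 in Nar 3, which gave -1.73 on the log2 scale (standard error 0.583, limma adjusted p = 0.045). This call was lost without any 1 of the 4 libraries, with haemoglobin genes removed, without the filter and with a pseudocount of 1 (limma adjusted p = 0.0607). It was also lost without the trend (limma adjusted p = 0.0539) and after median-of-ratios scaling (-0.61, limma adjusted p = 0.791). The log2 fold change of Ms4a6c was -0.88 without Ctrl 1 and -2.57 without Ctrl 3. Ms4a6b reached 4.93 FPKM in Ctrl 1 and 1.7 in Ctrl 3, against 2.12 in Nar 1 and 1.12 in Nar 3, and the groups overlapped (log2 fold change -0.87, limma adjusted p = 0.192, and 0.24 with median-of-ratios scaling). Its log2 fold change was -0.13 without Ctrl 1 and -1.61 without Ctrl 3. T cells also express Ms4a6b, and the summed level of 8 T cell markers was 15.5, 25.2, 10.6 and 7.8 FPKM in Ctrl 1, Ctrl 3, Nar 1 and Nar 3. Without Lat, which made up much of these sums and peaked in Ctrl 3, the sum was 8.46, 4.99, 5.36 and 3.77 FPKM in the same order, and the part of T cells in the Ms4a6b values was not tested. The 2 genes share few 50-base words (6.08% of those of Ms4a6c). Ms4a6d, a further family member, was called lower with 2.08 and 0.89 FPKM in Ctrl and 0.61 and 0.07 in Nar (log2 fold change -2.08, limma adjusted p = 0.0387), and this call was lost with median-of-ratios scaling (-1.18, limma adjusted p = 0.532).

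**Figure D3:**
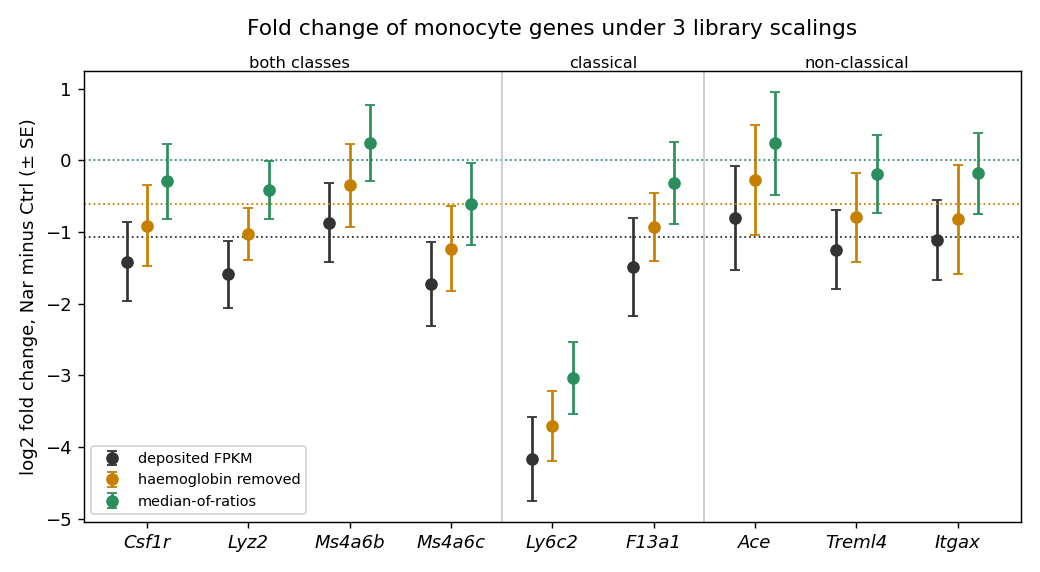
Log2 fold change of Nar against Ctrl with its standard error (vertical axis) for the 9 genes under 3 scalings of the libraries, with dotted lines at the median of all tested genes under each. Ly6c2 lies far below the dotted line under each scaling (-4.17, -3.71 and -3.04), while the other 8 genes lie much nearer to it.

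Ratios within a library do not depend on how libraries were scaled, so each gene was also divided by Csf1r, the receptor common to all monocytes. Treml4 kept a nearly constant ratio of 0.484 in Ctrl 1 and 0.381 in Ctrl 3, against 0.446 in Nar 1 and 0.484 in Nar 3, a range of 1.27-fold. Ms4a6c, Itgax and Ms4a6b varied by 1.54-fold, 1.58-fold and 1.68-fold. The Ms4a6b ratio was higher in both Nar libraries (1.00 and 1.16) than in both Ctrl libraries (0.768 and 0.688), the Ms4a6c ratio was lower in both Nar libraries (0.853 and 1.02 against 1.32 and 1.03), and the Itgax groups overlapped. The Ly6c2 ratio was 4.24 in Ctrl 1 and 12.5 in Ctrl 3, against 1.28 in Nar 1 and 0.856 in Nar 3, so it varied by 14.6-fold and both Nar libraries were below both Ctrl libraries. Lyz2, Ace and F13a1 varied by 3.28-fold, 3.48-fold and 6.50-fold, and their groups overlapped. Ccr2, the chemokine receptor of classical monocytes and a gene named after its values were seen, had ratios of 0.835, 0.793, 0.659 and 0.330, lower in both Nar libraries by less than Ly6c2. Chil3, named in the same way, had ratios of 4.72 and 25.6 in Ctrl and 1.40 and 2.44 in Nar, a wider range of 18.3-fold that also did not overlap. The ratios of Spi1 did not overlap either, at 2.94 and 6.57 in Ctrl and 1.08 and 2.71 in Nar. Those of Cx3cr1, Nr4a1, Lyz1 and Ly6c1 overlapped between the groups. These ratios are a description and were not tested.

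**Figure D4:**
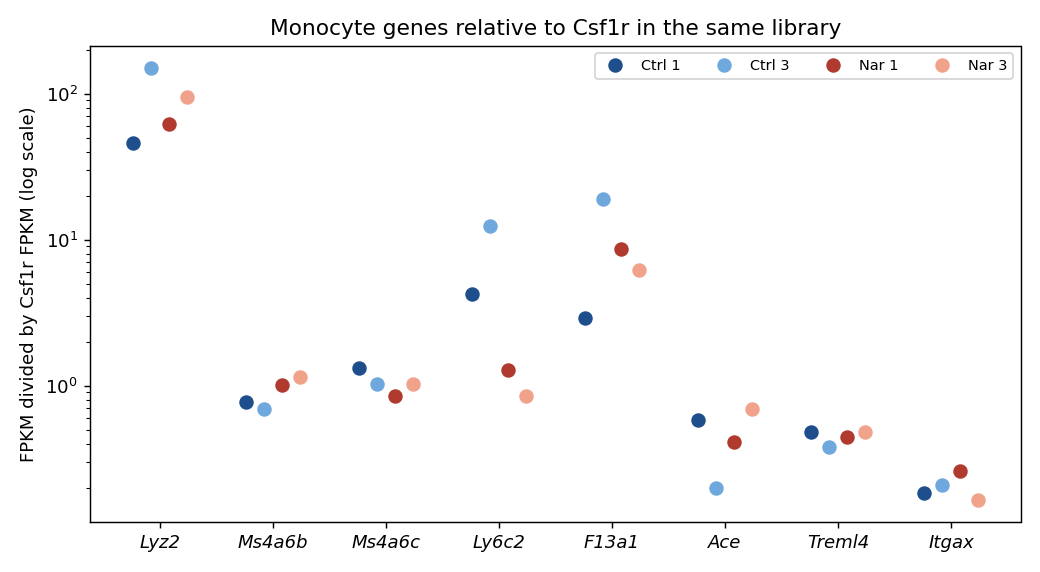
FPKM of 8 monocyte genes divided by the FPKM of Csf1r in the same library (vertical axis, log scale), with 1 point per library. Treml4 stays between 0.381 and 0.484, whereas Ly6c2 runs from 12.5 in Ctrl 3 to 0.856 in Nar 3.

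To compare the classes directly, the mean log2(FPKM + 0.1) of Ace, Treml4 and Itgax was subtracted from that of Ly6c2 and F13a1 in each library. This log2 difference was 3.17 in Ctrl 1 and 5.71 in Ctrl 3, against 3.04 in Nar 1 and 2.29 in Nar 3. The mean was lower in Nar by 1.77, which is less than the 2.54 between the control libraries, and Ctrl 1 was only just above Nar 1. The difference was -3.04 without Ctrl 1 and -0.50 without Ctrl 3. The classical genes were then taken singly. Ly6c2 alone stood above the non-classical mean by 3.44 and 5.42 in Ctrl and by 1.69 and 0.94 in Nar, so the groups did not overlap. F13a1 alone stood above it by 2.90 and 6.01 in Ctrl and by 4.39 and 3.65 in Nar, so the groups overlapped.

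Wider lists of monocyte genes were followed in the same way. Of 12 other classical genes, 11 could be tested and 9 were called lower, where 39.3% of all tested genes were, with a median log2 fold change of -2.50. The highest levels were those of Chil3, a chitinase-like protein, Plac8 and Hp, the gene of haptoglobin, with log2 fold changes of -4.00, -2.50 and -2.90 and limma adjusted p-values of 0.00427, 0.0129 and 0.00671. Ly6a changed least (-0.83, limma adjusted p = 0.122). Neutrophils or their precursors also express Chil3, Hp, Cd177, Mgst1 and Itgam, and which cells this RNA came from was not tested. After median-of-ratios scaling the median of the list was -1.34 and Chil3 alone was called, where 0.599% of all tested genes were called lower.

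Of 12 other non-classical genes, all could be tested and 2 were called lower, Cebpb and Itgal, where 39.3% of all tested genes were, with a median log2 fold change of -0.51 that is above the median of all tested genes. Cebpb, a transcription factor that neutrophils and monocytes share, had the largest fall (-2.85, limma adjusted p = 0.00582), and Itgal, an integrin chain of most leukocytes, fell by 1.52 on the log2 scale (limma adjusted p = 0.0451). Cd36 (0.23, limma adjusted p = 0.703) and Ear2 (0.35, limma adjusted p = 0.714) lay highest. After median-of-ratios scaling the median of this list was 0.42 and 0 of its genes were called. Nr4a1 reached 10.6 FPKM in Ctrl 1 and 1.46 in Ctrl 3, against 1.36 in Nar 1 and 0.81 in Nar 3 and was not called (limma adjusted p = 0.0775). It is also an immediate early gene.

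Of 12 other genes shared by monocytes, 9 could be tested and 8 were called lower, where 39.3% of all tested genes were, with a median log2 fold change of -2.04. Cd14, the co-receptor for bacterial lipopolysaccharide, fell by 4.30 on the log2 scale (limma adjusted p = 0.00238), from 14.7 and 11.9 FPKM in Ctrl to 0.44 and 0.75 in Nar. Spi1 fell by 2.79 (limma adjusted p = 0.00609) and Ctss, a lysosomal protease, by 1.73 (limma adjusted p = 0.0379), both on the log2 scale. Klf4, a factor of monocyte differentiation, lay nearest to 0 among the 9 tested genes and was not called (limma adjusted p = 0.153). After median-of-ratios scaling Cd14 alone was called, where 0.599% of all tested genes were called lower, and the median was -0.91. Neutrophils also express Cd14 and Spi1.

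The control libraries differed from each other in the non-classical genes and in some genes of other cells. Of the 15 non-classical genes tested, 11 had an FPKM more than 2-fold higher in Ctrl 1 than in Ctrl 3, a comparison made after the values were seen. Among all tested genes 6.03% did so, and among 13 classical genes 3 did (Ccr2, Ms4a4c and Cd177). So did 3 of the 4 shared members (Csf1r, Ms4a6b and Ms4a6c, by 2.60-fold, 2.90-fold and 3.31-fold), 2 of 9 other shared genes, 3 of 5 NK cell markers, 3 of 7 T cell markers and 2 of 8 B cell markers, but 0 of 10 neutrophil markers. All 8 platelet markers differed the other way, more than 2-fold higher in Ctrl 3. The gap was 14.9-fold for Cd300e, 9.37-fold for Ear2, 9.18-fold for Adgre4, 9.14-fold for Cx3cr1, 7.67-fold for Ace and 7.26-fold for Nr4a1. Ctrl 3 held Cd300e, Adgre4 and Cx3cr1 at only 0.1, 0.17 and 0.14 FPKM. At such levels the unknown depth limits the values, and the size of these gaps is uncertain. Ly6c2, Chil3 and F13a1 lay lower in Ctrl 1 than in Ctrl 3, by ratios of 0.883, 0.479 and 0.400. The values of Cx3cr1, the fractalkine receptor, were 1.28 FPKM in Ctrl 1 and 0.14 in Ctrl 3, against 0.54 in Nar 1 and 0.17 in Nar 3. For these 6 genes the spread within the control group was larger than the difference between the groups.

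**Figure D5:**
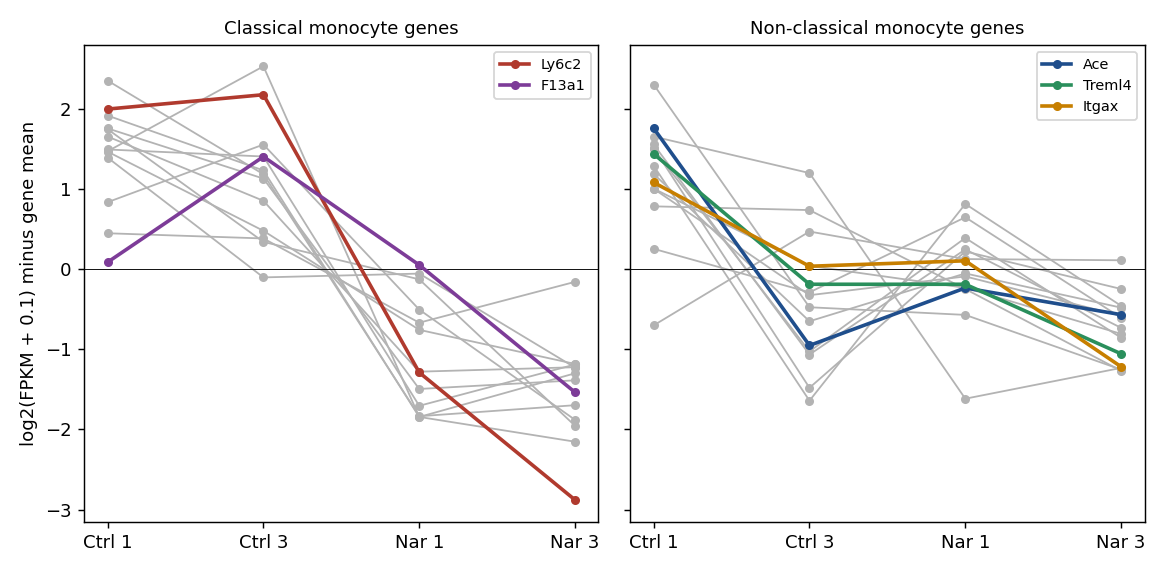
Classical (left) and non-classical (right) monocyte genes that could be tested, as log2(FPKM + 0.1) minus each gene's mean, by library, with the members in colour and other genes in grey. Lines join the values of 1 gene and imply no order. Most classical genes were high in both Ctrl libraries, while most non-classical genes were high in Ctrl 1 only (11 of 15 by more than 2-fold over Ctrl 3).

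The tested genes nearest to Csf1r in their profile over the 4 libraries were Gk, which encodes glycerol kinase, Ptpn6, a phosphatase of blood cells, and Ms4a4c. Their distances, on log2(FPKM + 0.1) centred on each gene's mean, were 0.110, 0.141 and 0.188. Ptpn6 was listed at 10.8 and 4.84 FPKM in Ctrl and 3.96 and 1.86 in Nar. Among the members, Treml4 ranked 9 of the tested genes by this distance, Itgax 26, Ms4a6c 30 and Ms4a6b 72, while Ace ranked 1776, Lyz2 1831, F13a1 4286 and Ly6c2 5264. With 4 libraries, these ranks are a description.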

How the data were processed

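RNA-seq was performed on 4 blood libraries, 2 from Ctrl and 2 from Nar mice, grouped by the sample labels. Messenger RNA was purified with oligo(dT) beads. The methods state alignment to reference gene sequences with bowtie-2, whereas the submitters' processing notes name TopHat2, Cufflinks and GRCm38, and which tool computed the values is not given in the sources used here. Per gene, the file deposited by the authors holds FPKM to 2 decimals, with 5313 of its 23136 genes left blank. FPKM values hold no read counts, low values showed no clear steps of single reads, and the depth is unknown. A value near 0.01 is limited by rounding. All 4 value columns were matched to a library.

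Differences were computed as log2(FPKM + 0.1), Nar minus Ctrl, which understates changes of low genes, and tested with limma 3.58.1 (lmFit, eBayes with trend) in R 4.3.3 with Benjamini-Hochberg adjustment over the 5339 genes whose mean reached 0.5 FPKM. The study's DEGseq test needs read numbers and was not used. The limma steps were tested on simulated data. The members and gene lists were chosen with earlier results of these data known. Named genes were the 9 members, the paralogs Ly6c1, Lyz1 and Ms4a6d, the 3 highest genes and the extremes of fold change in each wider monocyte list, and the 3 genes nearest to Csf1r. Other genes named were chosen after their values were seen. Lists of B cell and erythroid markers were also computed, and of 8 genes in each list 8 and 7 could be tested, 0 of them called, where 39.3% of all tested genes were called lower. Their median log2 fold changes were -0.38 and 0.57, against -1.07 for all tested genes. Of the other marker lists, 0 of 8 platelet, 0 of 7 T cell, 0 of 2 endothelial, 1 of 5 NK cell (Gzma) and 1 of 1 dendritic cell (Bst2) genes tested were called lower, to be read against the same 39.3%. Alternatives were pseudocounts of 1 and 0.01, no filter or a minimum mean of 5, libraries brought to 1000000 in sum (TPM), haemoglobin removal, median-of-ratios scaling, no trend, a replicate block and each library left out. Promoter windows came from RefSeq (GRCm38.p6), with 8 of 9 members matched, and transcripts from GENCODE M21. Python 3.11.15 with matplotlib 3.10.9 drew the plots.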

Additional observations from a re-analysis of the deposited data

How the results depend on the processing

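Ly6c2 was lower in Nar under all 13 alternatives planned and kept its call in 9 of them, with limma adjusted p-values from 7.12e-07 to 0.113. Limma calls over all tested genes (2106 on the deposited scale) numbered 670 with a pseudocount of 1, 0 without the filter (4978 genes had an unadjusted p-value under 0.05), 117 with a mean FPKM of at least 5, 256 with haemoglobin genes removed and 42 with median-of-ratios scaling. Members past the threshold (3 of 9) numbered 0 without the filter and 1 with either of the last 2 settings, and the median of the members was then -0.295 with median-of-ratios scaling. The fold changes of Ms4a6b (0.242) and Ace (0.234) reversed with median-of-ratios scaling, and that of Ace ran from -2.16 to 0.551 with 1 library left out, reversed without Ctrl 1. Leaving out 1 library at a time gave 0 to 258 calls, 0 to 1 members called, medians of the members from -2.06 to -0.741 and differences between the classes from -3.04 to -0.502. A lone library in a group was assumed to vary like the other group. The cause of these changes was not tested. Over all tested genes the deviations of same-numbered libraries had a weak negative correlation (-0.153), while 6 of the 9 members were higher in library 1 than in library 3 in both groups, and the numbers were not taken to pair the libraries. With the replicate block 1813 genes and 4 members were called (Csf1r, Ms4a6c, Ly6c2 and Treml4), and with the crossed replicate block, chosen after seeing the data, 2861 genes and 6 members. The unknown depth limits genes near 0.1 FPKM.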
